A study of Homo sapiens with 4 samples.

Results

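The enzymes that carry carbon from HMG-CoA to lanosterol were followed at the RNA level in HT1080 cells, a human fibrosarcoma line, after 36 h at 1% oxygen (hypoxia) or 21% oxygen (control). Gene positions are given on GRCh38.p14 from RefSeq. The members were fixed by name along the pathway, as HMGCS1, MVK, PMVK, MVD, IDI1, FDPS, FDFT1, SQLE and LSS, and each was read from the probe set whose annotation names that gene alone and has the highest mean over the arrays. A value was available for 8 of the 9 genes, out of 18417 genes with a value in all, and FDFT1, the squalene synthase gene, was not analysed here. The 4 groups were ER-RNA from hypoxic cells, ER-RNA from control cells, total RNA from hypoxic cells and total RNA from control cells. ER-RNA is the RNA recovered with an endoplasmic reticulum (ER) fraction prepared by a commercial isolation kit. All cells were kept in medium with reduced fetal calf serum from at least the day before, in both oxygen conditions. Each group is 1 Affymetrix Human Gene 1.0 ST array carrying RNA pooled from 5 independent experiments. No group is replicated, so the variation from experiment to experiment is unknown, no p-value is given, and precision is limited by having so few arrays.

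The mevalonate pathway builds isoprenoid units from acetyl-CoA and joins them into squalene, which is then oxidised and folded into lanosterol, the first sterol on the way to cholesterol. Its genes are classical targets of the transcription factor SREBP-2, which is held in the ER membrane by INSIG proteins when sterols are plentiful and released to the nucleus when they are scarce. Molecular oxygen is first consumed at the step catalysed by SQLE, and again several times in the later sterol steps. Isoprenoids made halfway along the pathway also feed protein prenylation, dolichol and ubiquinone synthesis.

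Across all 33297 probe sets the median signal was 6.34 in hypoxic ER-RNA, 6.25 in control ER-RNA, 7.49 in hypoxic total RNA and 7.41 in control total RNA. The fractions therefore do not share a scale, and hypoxia was set against control within each of them. The hypoxic label was checked on 8 genes known to respond to low oxygen. Of these, 7 were called higher in ER-RNA and 7 in total RNA. The genes were chosen with earlier results of these data known, so this is not an independent check of the label. EGLN3 had log2 fold changes of 1.52 in ER-RNA and 1.59 in total RNA. ADM, at -0.18 and 0.28 on the same scale, was called in neither fraction. GAPDH, a glycolytic enzyme, was at 0.13 and 0.12. Of 5 mesenchymal markers 5 lay above the array median in at least 1 ER-RNA array and 4 in at least 1 total RNA array. Of 3 epithelial markers EPCAM (3.93 to 5.6) and CDH1 stayed below the median on every array and KRT19 (6.34 to 7.99) lay above it on every array. The 2 measured leukocyte markers stayed below it, PTPRC at 3.24 to 4.67, and of 3 endothelial markers PECAM1 alone lay above it, in ER-RNA. Genes were taken as expressed in ER-RNA or total RNA if the hypoxic array, the control array or both placed them above the median of that array. Expressed genes with more than a 1.4-fold change and a z-score beyond 3 were called. For the z-score, the log2 difference was scaled by the SD typical of that signal, taken from a smooth curve of pair SD on pair mean. The pair SD is that of the values in a pair, which is smaller than the SD of their difference. The z-score therefore runs larger than one scaled by the SD of the difference. In such bulk RNA of a single cell line, a change in all cells and a larger change in some of them cannot be told apart.

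In ER-RNA, 7 of the 8 measured enzyme genes were higher in hypoxia, with a median log2 fold change of 0.44 (1.36-fold) against 0.057 over all genes, and 0 were called in either direction. In total RNA, 3 of the 8 rose in hypoxia, MVD, SQLE and LSS, and 0 fell. All 8 were higher there, with a median of 0.72 (1.64-fold) against 0.026 over all genes. The same rule called 1.12% of 11876 expressed genes higher and 8.25% lower in ER-RNA, and 2.32% of 11530 higher and 7.45% lower in total RNA. By fold change alone, 4 of the 8 exceeded 1.4-fold in ER-RNA, where 6.53% of expressed genes and 6.57% of all genes did. In total RNA 6 of the 8 exceeded it, where 6.2% of expressed genes and 5.22% of all genes did. Every measured member passed the expression filter, and all lay above the array median on each of the 4 arrays.

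**Figure D1:**
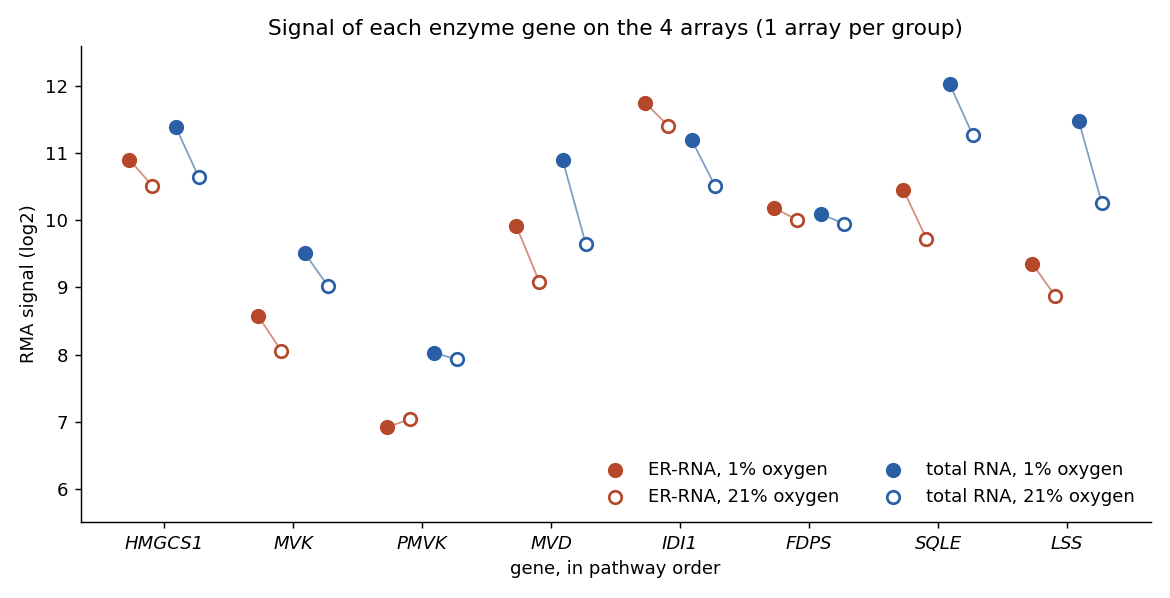
RMA signal on the log2 scale of the 8 measured enzyme genes in pathway order, with ER-RNA in red and total RNA in blue, hypoxia filled and control open, 1 array per point. The hypoxic point lies above the control point in every pair except PMVK in ER-RNA (6.92 against 7.04), and levels of different genes are not comparable.

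HMGCS1 (chr5:43287470-43313412, probe set 8111941) encodes the cytosolic HMG-CoA synthase, which condenses acetoacetyl-CoA with acetyl-CoA at the entry to the pathway. Its log2 signal was 10.91 in hypoxic ER-RNA and 10.51 in control ER-RNA. In total RNA it was 11.39 in hypoxia and 10.64 under control conditions. HMGCS1 was thus at 1.31-fold in ER-RNA (z-score 1.29) and 1.69-fold in total RNA (z-score 2.80), and the rule called neither. In total RNA the fold change exceeded the threshold and the z-score did not, and 98.2% of all genes had a lower fold change.

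The next steps add phosphate groups to mevalonate. MVK (chr12:109573272-109598125, probe set 7958565), mevalonate kinase, had a signal of 8.57 in hypoxic and 8.05 in control ER-RNA, and of 9.51 in hypoxic and 9.02 in control total RNA. It was at 1.43-fold in ER-RNA, against 1.404-fold in total RNA, just past the fold threshold in both, with z-scores of 1.71 and 1.78. PMVK (chr1:154924740-154942658, probe set 7920567), phosphomevalonate kinase, had 6.92 in hypoxic and 7.04 in control ER-RNA. In total RNA PMVK had 8.03 in hypoxia and 7.93 under control conditions. This is the smallest change of the pathway in total RNA (1.07-fold), and in ER-RNA PMVK was at 0.921-fold, the 1 value of the 16 in the pathway that was below control.

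MVD (chr16:88651940-88663091, probe set 8003332), mevalonate diphosphate decarboxylase, makes isopentenyl diphosphate, the isoprenoid unit itself. It had the highest fold change value of the measured members in both fractions. In total RNA LSS lay close to it at 2.35-fold, and these neighbours cannot be ordered. The MVD signal was 9.92 in hypoxic and 9.08 in control ER-RNA, a fold change of 1.79 with a z-score of 2.58. In total RNA it was 10.90 in hypoxia and 9.64 under control conditions, and MVD rose 2.39-fold with a z-score of 4.47. Among 18417 genes ordered by fold change MVD stood at rank 162 in ER-RNA and rank 80 in total RNA.

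IDI1 (chr10:1039152-1056704, probe set 7931754), isopentenyl diphosphate isomerase, supplies the allylic partner for chain building. Its signal was 11.75 in hypoxic and 11.41 in control ER-RNA, and 11.20 in hypoxic and 10.52 in control total RNA. The fold changes were 1.27 in ER-RNA (z-score 1.32) and 1.602 in total RNA (z-score 2.49), and IDI1 was not called in either fraction. Its paralog IDI2 was below the expression filter in both fractions, with signals between 4.52 and 5.57. FDPS (chr1:155308866-155320665, probe set 7905986), farnesyl diphosphate synthase, makes the last intermediate shared with the prenylation branches. FDPS had 10.19 in hypoxic and 10.00 in control ER-RNA, and 10.10 in hypoxic and 9.95 in control total RNA. At 1.13-fold and 1.11-fold it was close to control in both fractions. A further pair of probe sets names FDPS together with its pseudogene FDPSP2 and was not used for the gene, and these were at 1.13-fold and 1.14-fold in ER-RNA and at 1.06-fold and 1.12-fold in total RNA.

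SQLE (probe set 8148280), squalene monooxygenase, is an ER membrane enzyme that inserts oxygen into squalene. Its signal was 10.46 in hypoxic and 9.73 in control ER-RNA, and 12.03 in hypoxic and 11.27 in control total RNA. In total RNA SQLE rose 1.70-fold, its z-score of 3.10 being just past the threshold, while in ER-RNA it stood at 1.66-fold (z-score 2.29). The log2 fold changes differed by only -0.032 between ER-RNA and total RNA, whereas the rule called SQLE in total RNA alone. LSS (chr21:46188446-46228774, probe set 8070961), lanosterol synthase, closes the rings of the oxidised squalene. LSS had 9.35 in hypoxic and 8.87 in control ER-RNA, and 11.49 in hypoxic and 10.26 in control total RNA. It rose 2.35-fold in total RNA (z-score 4.52, rank 90 of all genes) and was at 1.4002-fold in ER-RNA (z-score 1.5).

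**Figure D2:**
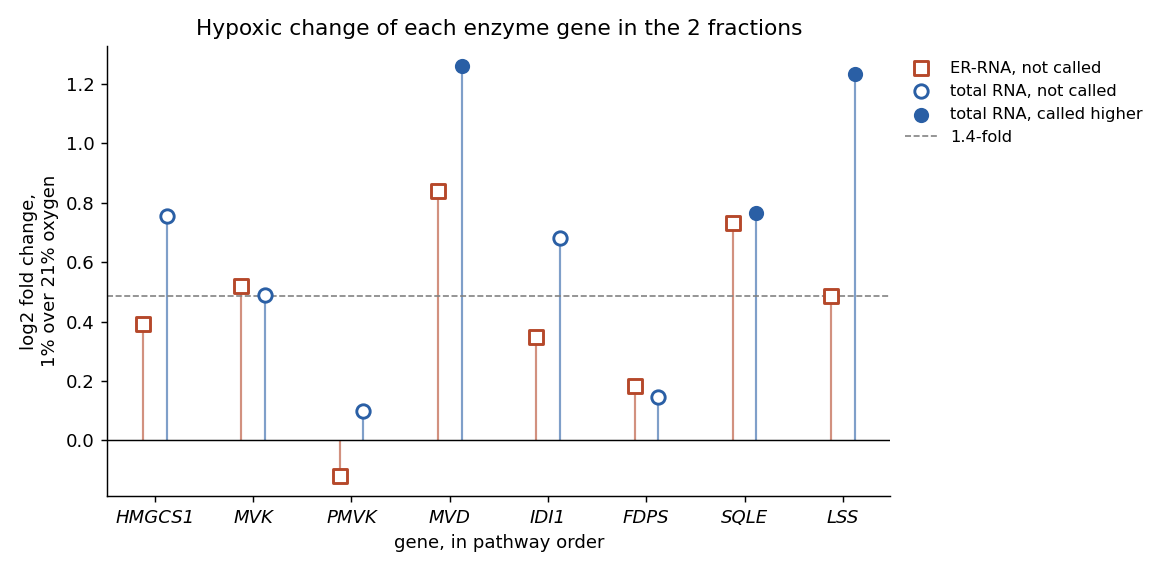
Log2 fold change, hypoxia over control, of the 8 measured enzyme genes in pathway order in ER-RNA (squares) and total RNA (circles), with called genes filled and 1.4-fold as a dashed line. MVD (1.26), LSS (1.23) and SQLE (0.76) are filled in total RNA, no square is filled, and PMVK and FDPS lie nearest 0.

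Along the pathway the changes were uneven. In total RNA, MVD and LSS stood apart from the rest at above 2-fold, HMGCS1, IDI1 and SQLE lay between 1.602-fold and 1.70-fold, MVK was at 1.404-fold, and FDPS and PMVK were at 1.11-fold and 1.07-fold. No order can be given to neighbours such as HMGCS1 and SQLE, whose log2 fold changes in total RNA were 0.75 and 0.76, since no spread between arrays can be measured. The calls rest on how the SD is taken. When the SD was taken from the scaled median absolute deviation (MAD) of the log2 differences, 0 of the 8 were called in total RNA, and 0.867% of expressed genes were called higher. That SD is of the difference and not of the values in a pair. The same z-score threshold is thus stricter there, and scale and model were not separated. HMGCS1 was called as well in total RNA after quantile normalization or within-pair loess, and MVD was then also called in ER-RNA, while SQLE lost its call when each array was centred on its median. With that centring MVK and LSS, at 0.44 and 0.40 on the log2 scale, were no longer past 1.4-fold in ER-RNA.

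**Figure D3:**
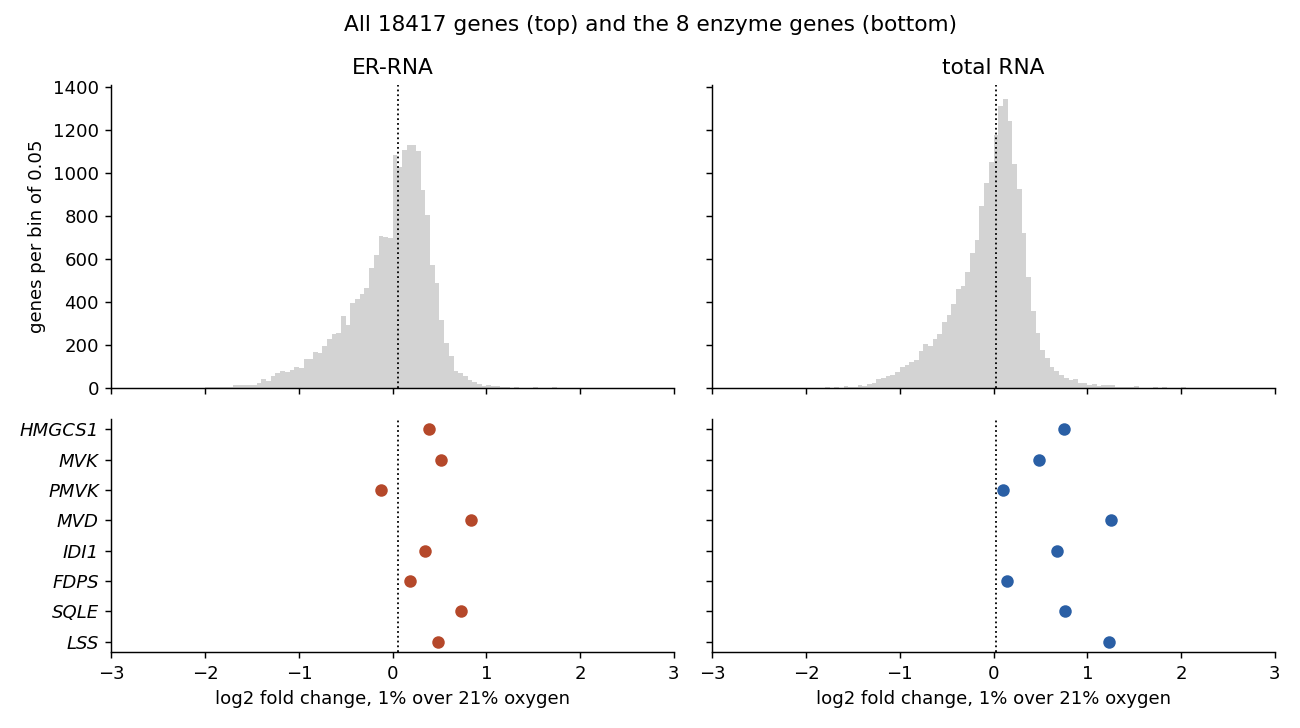
Top, number of genes per bin of log2 fold change, hypoxia over control, for all 18417 genes in ER-RNA (left) and total RNA (right), with the median as a dotted line at 0.057 and 0.026. Bottom, the 8 measured enzyme genes on the same axis, of which PMVK in ER-RNA is the 1 point left of the median.

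Set against each other, the fold changes were smaller in ER-RNA than in total RNA for 6 of the 8 genes. The difference of the log2 fold changes, ER-RNA minus total RNA, had a median of -0.28, against 0.013 over all genes, whose quartiles were -0.19 and 0.20. LSS differed most, with a log2 fold change of 0.49 in ER-RNA and 1.23 in total RNA, a difference of -0.75 that was lower than in all but 1.42% of genes. MVD (-0.42), HMGCS1 (-0.36), IDI1 (-0.33) and PMVK (-0.22) also lay below the lower quartile. SQLE (-0.032), MVK (0.030) and FDPS (0.038) changed almost alike in both fractions. The hypoxia genes checked above also had a smaller median log2 fold change in ER-RNA (1.17) than in total RNA (1.49). Total RNA includes the ER-bound RNA, and no test of these differences could be made.

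**Figure D4:**
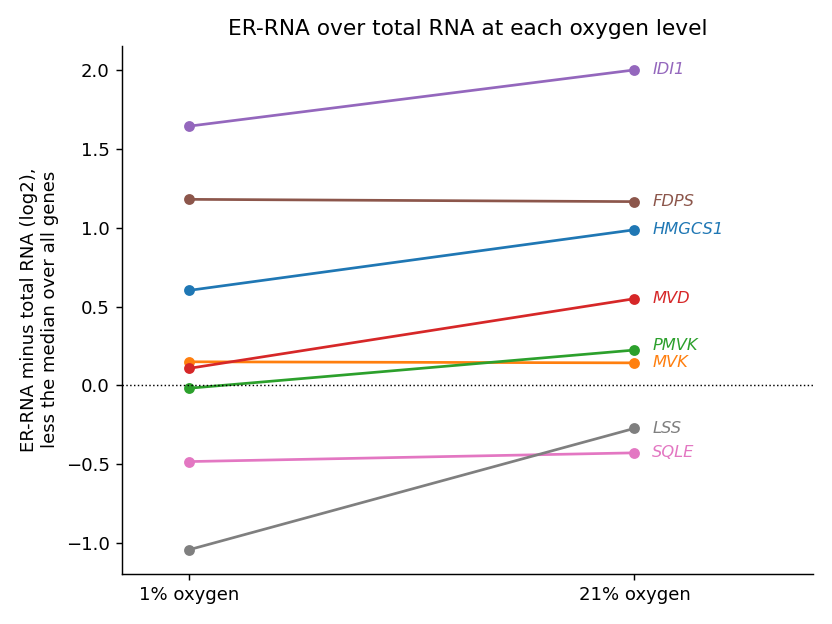
ER-RNA minus total RNA on the log2 scale for each measured enzyme gene, less the median of that difference over all genes, in hypoxia (left) and under control conditions (right). IDI1 lies highest at 1.64 and 2.00, LSS moves most (-1.04 and -0.27), and FDPS, MVK and SQLE are nearly level.

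The level in ER-RNA over total RNA was read relative to all genes, whose median difference was -1.09 in hypoxia and -1.11 under control conditions on the log2 scale. IDI1 lay 1.64 above that median in hypoxia and 2.00 above it under control conditions, where 98.0% and 99.1% of genes lay lower. FDPS lay 1.18 and 1.17 above it and HMGCS1 0.60 and 0.99 above it. MVD (0.11 and 0.55), MVK (0.15 and 0.14) and PMVK (-0.018 and 0.22) lay nearer the median. All 6 encode soluble enzymes, so that genes for soluble enzymes lay both near the median and far above it. SQLE and LSS, whose products act at the ER membrane, had relative values of -0.48 and -1.04 in hypoxia and -0.43 and -0.27 under control conditions. Genes of the later sterol steps also differed widely. Control ER-RNA and total RNA signals were 10.12 and 12.37 for DHCR7, against 9.51 and 10.03 for EBP. Whether this measure follows where an RNA is bound was not tested. The median of the 8 genes was 0.13 in hypoxia and 0.39 under control conditions, and after quantile normalization over the 4 arrays it was -0.063 in hypoxia and 0.22 under control conditions, so that its sign in hypoxia depends on the scaling.

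Reference promoters were read to show what letters the genes carry at their start. RefSeq promoters of build GRCh38.p14, covering 250 bases before and 50 bases after each start, were matched by symbol for 7 members with 10 promoters. The promoter of SQLE, 1 of the 3 genes called in total RNA, was not analysed here. The search covered both strands for a sterol regulatory element (TCACNCCAC), the CCAAT box that binds NF-Y, a partner of SREBP, and the core of the hypoxia response element (ACGTG or GCGTG). Matches may overlap, as ACGTG and its reverse complement do in CACGTG. The element TCACNCCAC was in 0 of the 7 members and in 1.13% of 35116 promoters. The letters CCAAT were in 6 of the 7 members, all but PMVK, and in 34.6% of all promoters. The hypoxia response core was in 6 of the 7, all but MVK, and in 48.4% of all promoters. HMGCS1 and IDI1 have several promoters in the table and were counted where any of them held the letters. Each had a promoter without CCAAT, and HMGCS1 also had one without a hypoxia response core. The counts of genes are therefore not directly comparable with the shares of single promoters. The 1 promoter of MVK held 5 CCAAT matches, as many as the 3 promoters of IDI1 together, and the 1 promoter of LSS held 5 hypoxia response cores. The IDI1 count includes an overlapping pair in CCAATTGG. The LSS count includes an overlapping pair in CACGTG at bases 41 to 46 after the start.

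The promoters of MVD and LSS are shown because these genes had the largest fold changes in total RNA, and those of FDPS and PMVK because theirs were the smallest. Each line gives the 250 bases before the start, 5′ to 3′ on the gene's strand, with capitals marking CCAAT or its reverse complement ATTGG, and GCGTG or its reverse complement CACGC. MVD lies at chr16:88663092-88663341 (minus strand), LSS at chr21:46228775-46229024 (minus strand), FDPS at chr1:155308616-155308865 (plus strand) and PMVK at chr1:154936720-154936969 (minus strand). The PMVK promoter lies inside the gene span given above (chr1:154924740-154942658), at an internal start. Those of MVD, LSS and FDPS adjoin the ends of their gene spans.
MVD: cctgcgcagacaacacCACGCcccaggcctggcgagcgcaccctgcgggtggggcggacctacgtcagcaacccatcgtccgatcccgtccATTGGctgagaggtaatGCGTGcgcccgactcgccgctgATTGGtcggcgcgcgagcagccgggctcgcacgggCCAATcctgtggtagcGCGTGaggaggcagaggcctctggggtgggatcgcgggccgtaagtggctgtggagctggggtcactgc
LSS: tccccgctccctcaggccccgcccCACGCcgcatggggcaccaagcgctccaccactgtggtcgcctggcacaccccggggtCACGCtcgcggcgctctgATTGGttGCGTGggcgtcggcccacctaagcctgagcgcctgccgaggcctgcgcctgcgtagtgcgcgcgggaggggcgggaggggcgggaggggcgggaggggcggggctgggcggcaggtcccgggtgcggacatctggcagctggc
FDPS: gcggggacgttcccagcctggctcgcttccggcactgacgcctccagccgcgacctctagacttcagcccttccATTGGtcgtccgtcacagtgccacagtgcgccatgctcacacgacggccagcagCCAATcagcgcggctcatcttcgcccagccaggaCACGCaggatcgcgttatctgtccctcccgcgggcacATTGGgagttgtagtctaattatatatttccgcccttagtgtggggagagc
PMVK: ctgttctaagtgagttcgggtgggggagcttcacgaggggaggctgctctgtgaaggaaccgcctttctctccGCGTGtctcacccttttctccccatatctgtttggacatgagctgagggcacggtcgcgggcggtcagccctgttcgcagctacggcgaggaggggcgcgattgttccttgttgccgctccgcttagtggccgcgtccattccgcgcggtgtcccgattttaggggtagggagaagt

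MVD carries 3 CCAAT matches and 3 hypoxia response cores in these 250 bases. LSS carries 1 CCAAT match, followed closely by a GCGTG and with CACGC upstream of both, while its overlapping CACGTG pair lies outside these bases. FDPS has 3 CCAAT matches and 1 hypoxia response core while its RNA was close to control. PMVK has no CCAAT match and 1 hypoxia response core in these bases. A further core of PMVK lies outside them, at bases 22 to 26 after the start. Both kinds of letters are common, a match is not a site that was measured, and no match says only that these letters are not in this window.

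The genes around the pathway were read from lists. ACAT2, which makes the acetoacetyl-CoA that HMGCS1 uses, was at 1.35-fold in ER-RNA and rose 1.93-fold in total RNA. Of 8 measured genes of the late sterol steps, which turn lanosterol into cholesterol, 0 were called in ER-RNA and 3 rose in total RNA (CYP51A1, EBP and DHCR7), and 7 were higher in each fraction. The list had a median log2 fold change of 0.46 in ER-RNA, against 0.52 in total RNA. EBP, a sterol isomerase, was highest in ER-RNA at 1.72-fold, and CYP51A1, an oxygen-using lanosterol demethylase, was highest in total RNA at 2.08-fold. LBR, a sterol reductase that also anchors chromatin at the nuclear envelope, was lowest at 0.786-fold and 0.886-fold.

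Of 7 sterol regulators, INSIG2 rose 3.54-fold in ER-RNA, and INSIG2 (5.41-fold) and INSIG1 (1.94-fold) rose in total RNA. SCAP, which escorts SREBP out of the ER, fell to 0.563 of control in total RNA (z-score -3.03), whereas in ER-RNA it was at 0.926-fold. SREBF2, which encodes SREBP-2, was at 1.21-fold in ER-RNA, against 1.22-fold in total RNA. The protease gene MBTPS1 was lowest in ER-RNA, at 0.690-fold. Of 4 measured genes of sterol uptake and movement, STARD4, a cytosolic sterol carrier, was highest in both fractions and rose 2.36-fold in total RNA, while it was at 1.62-fold in ER-RNA. LRP8, a lipoprotein receptor, was lowest at 0.835-fold and 0.653-fold.

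The isoprenoid branches that draw on the same intermediates were mostly lower in hypoxia. Of 10 measured genes, 9 were expressed in each fraction, 5 fell in ER-RNA and 0 in total RNA, and 8 were lower than control in both. The branch genes had a median of -0.67 in ER-RNA and -0.34 in total RNA on the log2 scale. RABGGTB, a subunit of the Rab prenyltransferase, fell to 0.397 of control in ER-RNA and was at 0.619-fold in total RNA. PDSS1 and COQ2, both of ubiquinone synthesis, fell to 0.423 and 0.534 in ER-RNA, and PDSS1 was lowest in total RNA at 0.591-fold. DHDDS, a subunit of the dolichol-building enzyme, and PGGT1B, a subunit of a protein prenyltransferase, also fell in ER-RNA, to 0.515 and 0.489. GGPS1, which makes geranylgeranyl diphosphate, was highest at 1.21-fold and 1.44-fold. The call rule found more falls than rises among all genes, as given above, and the lists were not tested against each other.

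In fatty acid synthesis, which SREBP factors also control, 8 of 8 genes were measured, with medians of 0.15 in ER-RNA and 0.13 in total RNA. ACSS2, which makes acetyl-CoA from acetate, was highest in both, at 1.70-fold in ER-RNA and with a rise of 2.12-fold in total RNA. The elongase gene ELOVL6 fell to 0.488 of control in ER-RNA and 0.469 in total RNA. These were the 2 genes of the list called in total RNA.

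**Figure D5:**
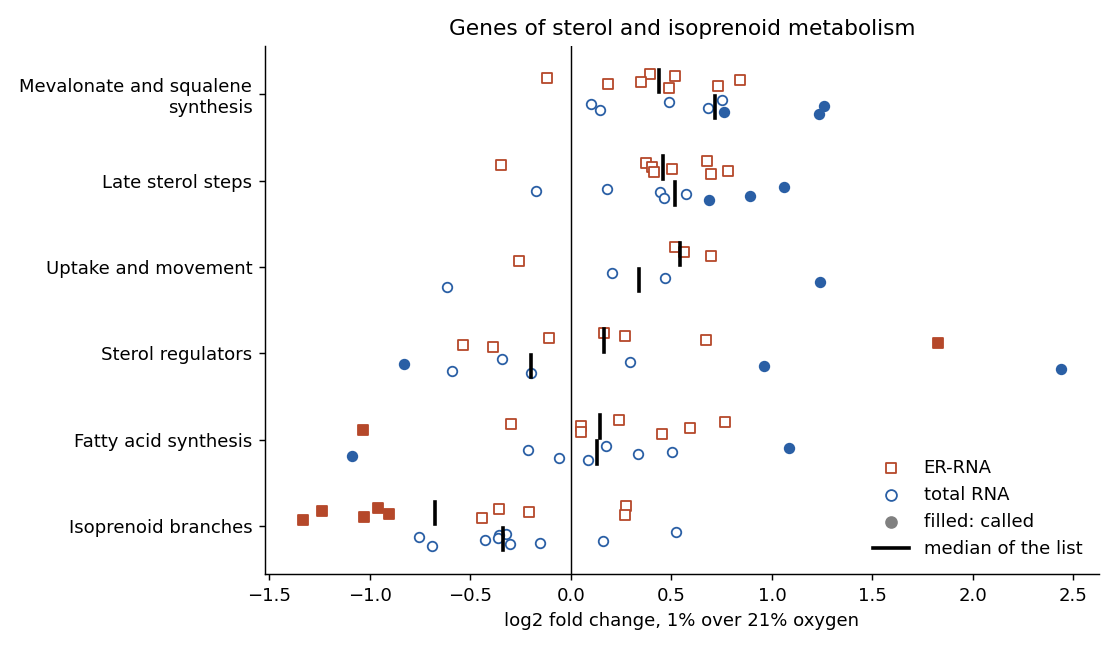
Log2 fold change, hypoxia over control, of the 8 measured enzyme genes and of 5 related lists, with ER-RNA as squares, total RNA as circles, called genes filled and list medians as black bars. The mevalonate and squalene genes have medians of 0.44 and 0.72 and the isoprenoid branches of -0.67 and -0.34.

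The median profile of the 8 genes over the 4 arrays, after each gene was centred on its own mean, was compared with 10843 other genes expressed in both fractions. NSDHL, a dehydrogenase of the late sterol steps, lay nearest with a Euclidean distance of 0.040 on the log2 scale. It was at 1.42-fold in ER-RNA, against 1.49-fold in total RNA. The others among the nearest 5 were MIR503HG (0.049), TRHDE-AS1 (0.068), MAGEB17 (0.082) and PLCH2 (0.103). The members themselves lay between 0.273 (MVK) and 1.42 (IDI1) from their own median profile, so that the profile stands for no single one of them. With 4 arrays such a likeness is only a description.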

How the data were processed

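HT1080 RNA was hybridised to Affymetrix Human Gene 1.0 ST arrays, and the deposited values are log2 signals that the authors normalized by RMA. Partek 6.4 and RMA are the tools in the submitters' processing notes, and do not say whether the 4 arrays were normalized together. Gene names came from the platform annotation, with 19429 of 19460 probe sets that name 1 gene matched to RefSeq by identifier. Each measured member has exactly 1 such probe set.

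Differences were hypoxia minus control within a fraction. The call rule (fold change over 1.4, z-score over 3, at least 1 array above its 50% quantile) follows the thresholds in the study's methods. The SD came from a loess fit (span 0.75, degree 2) of the SD over the pair on its mean across all kept probe sets. The study's methods describe a curve for treatment and control groups fitted apart, which 1 array per group does not allow, so the curve used here is a substitute and its calls, the 0 in ER-RNA included, need not be the study's. R 4.3.3, limma 3.58.1 and matrixStats 1.5.0 were used. The rule was also run on simulated pairs with noise set by the scaled MAD. Only calls of the largest planted changes, which exceed that of any member, were required there. Named genes were all members, the highest and lowest of each related list in each fraction, the 5 nearest profiles, EGLN3 and GAPDH. SREBF2, the cell type markers and other called list genes were named after their values were seen. Members and lists were chosen with earlier results of these data known. Alternatives covered normalization, filter, SD model, fold threshold and the probe sets in the fit.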

Additional observations from a re-analysis of the deposited data

Results flagged for a closer look

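PMVK was below control in ER-RNA and above it in total RNA, with log2 fold changes of -0.119 and 0.100. It is the 1 measured member whose sign differed between the fractions. With 1 array per group the difference was not tested. Both values are small, and 34.0% of all genes had a lower value in ER-RNA and 60.3% in total RNA.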

How the results depend on the processing

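No paired analysis was possible because each group is 1 array, and leaving out replicates could not be done for the same reason. The mean over all probe sets of a gene was not run as a separate setting, since each measured member has 1 probe set. Under 3 other normalizations, 48 of 48 gene values (8 genes in both fractions) kept their sign and 43 kept their call or lack of one. The other 7 settings leave a gene's fold change as it is and can alter only the call, which they did for 11 of 112. The median log2 fold changes of the members kept their sign and stayed within 1.5 times under the 3 normalizations, from 0.36 to 0.56 in ER-RNA and from 0.64 to 0.92 in total RNA, as did the median difference between the fractions. In ER-RNA, where 0 members were called, 1 was called after quantile normalization, 1 after within-pair loess and 4 by fold change and filter alone. In total RNA, where 3 were called, the scaled-MAD model of the SD, stricter at the same z-score threshold, called 0. Fold change with the filter alone called 6 there. With each array centred on its median, 2 members exceeded 1.4-fold in ER-RNA in place of 4. Past a 2-fold threshold there were 0 in ER-RNA and 2 in total RNA. After quantile normalization the median ER-RNA minus total RNA of the members, relative to all genes, was -0.063 in hypoxia, where it had been 0.13, and 0.22 under control conditions, where it had been 0.39. For settings other than the SD model, the fold threshold and the use of fold change alone, which change the rule itself, the cause was not tested. The number of arrays limits the precision throughout.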
